A study of Mus musculus with 24 samples.

Results

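The genes described here are 8 that encode proteins of the lipid droplet surface and of droplet assembly: Plin1, Plin2, Plin3, Plin4, Plin5, Cidec, Bscl2 and Fitm2. They were taken by gene symbol from the 24647 named genes of an Affymetrix mouse transcript array. Each of the 8 was represented by 1 transcript cluster (a set of probes that reads 1 gene) of 4 to 16 markers, and all 8 passed the filter on low values, which asked for a log2 mean of 5 or more in one of the genotypes. The array was run on RNA of perigonadal fat from 12 male AdipoQ-LPL mice and 12 male Control mice on the C57BL/6 background. The AdipoQ-LPL mice (genotype label AdipoQ-LpL -/+) carry a transgene in which the adiponectin promoter drives lipoprotein lipase (LPL), so that its expression is directed to adipocytes. The Control mice were their littermates without it (AdipoQ-LpL -/-). All 24 mice entered calorimetry chambers at 9.5 weeks of age, were switched there to a diet with 60% of calories from fat, and were individually housed for the end of a total exposure of 10 days. No mice kept on chow were analysed here, so every value describes fat tissue under the high fat diet.

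White adipocytes keep most of their triglyceride in a single large droplet, which buds from the endoplasmic reticulum and is covered by a phospholipid monolayer with bound proteins. The perilipins (the Plin genes) coat that surface and control the access of lipases. CIDEC moves lipid between droplets that touch and so enlarges them. Seipin, encoded by Bscl2, and the protein encoded by Fitm2 sit in the endoplasmic reticulum and act while the droplet forms. LPL lies upstream of all of these, because it releases fatty acids from circulating lipoproteins for uptake and storage.

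The animal numbers in the labels fell into a range from 289 to 437 (8 AdipoQ-LPL and 5 Control mice) and a range from 842 to 877 (4 AdipoQ-LPL and 7 Control mice). The labels do not say what the ranges stand for. Array medians lay between 6.86 and 6.97 (log2) in the lower range and between 7.22 and 7.29 in the upper range, with no overlap, so that the tests below had the range in the model or were made within each range, unless stated otherwise. Spans and medians given over 12 mice pool both ranges. Adipoq, the adipocyte hormone gene that defines the tissue, averaged 11.91 (log2), whereas Ucp1, which marks brown and beige adipocytes, averaged 5.05, near the filter. Of 10 listed epididymis genes, 5 passed the filter, and the mean of those 5 reached 7.70 in the highest Control array and 5.69 in the highest AdipoQ-LPL array. Lpl itself, the gene of the transgene product, differed by -0.02 (SE 0.04, adjusted p = 0.856 by limma) and 0.06 (SE 0.09, adjusted p = 0.868) on the log2 scale in its 2 clusters. Within the lower and the upper range the first cluster differed by -0.07 (SE 0.05) and 0.03 (SE 0.06). The second differed by -0.15 (SE 0.08) and 0.31 (SE 0.15). For that cluster the upper minus the lower difference was 0.46 (SE 0.17, p = 0.0119, adjusted p = 0.603 by limma). Whether these probes read RNA of the transgene is not given in the sources used here.

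The promoters of 4 of the perilipin genes are shown, as pairs whose correlation from mouse to mouse is described further on. Plin2 with Plin3 passed that test in both number ranges, and Plin1 with Plin4 in the upper range only. Plin2 with Bscl2 also passed in both ranges, at the threshold in the lower one, but the Bscl2 promoter is not shown. The sequences are from RefSeq (mouse build GRCm38.p6) and run 5′ to 3′ on the gene's own strand, which is the minus strand for all 4, over 300 bases each that end just after the annotated start. Capitals mark any match, on either strand, to the nuclear receptor site AGGTCA, the E-box CACGTG, the CCAAT box CCAAT, the GC box GGGCGG or the TATA box TATAAA. The Plin2 promoter lies at chr4:86670010-86670309, Plin3 at chr17:56290462-56290761, Plin1 at chr7:79732727-79733026 and Plin4 at chr17:56109733-56110032.
Plin2: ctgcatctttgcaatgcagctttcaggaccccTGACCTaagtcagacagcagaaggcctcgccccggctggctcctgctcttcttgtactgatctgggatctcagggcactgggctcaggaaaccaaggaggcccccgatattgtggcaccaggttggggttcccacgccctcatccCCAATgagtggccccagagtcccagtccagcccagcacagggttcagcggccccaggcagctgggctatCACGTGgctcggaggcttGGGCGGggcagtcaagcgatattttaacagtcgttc
Plin3: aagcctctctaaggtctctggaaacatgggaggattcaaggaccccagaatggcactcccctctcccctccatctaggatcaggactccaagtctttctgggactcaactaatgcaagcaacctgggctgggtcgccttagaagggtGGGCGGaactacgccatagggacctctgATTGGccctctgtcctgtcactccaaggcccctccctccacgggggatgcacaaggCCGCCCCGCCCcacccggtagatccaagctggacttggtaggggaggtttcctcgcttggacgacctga
Plin1: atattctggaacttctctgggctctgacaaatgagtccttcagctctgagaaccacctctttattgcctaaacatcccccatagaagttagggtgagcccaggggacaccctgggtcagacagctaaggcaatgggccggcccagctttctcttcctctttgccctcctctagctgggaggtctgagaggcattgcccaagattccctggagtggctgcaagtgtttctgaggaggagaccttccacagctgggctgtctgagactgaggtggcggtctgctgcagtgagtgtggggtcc
Plin4: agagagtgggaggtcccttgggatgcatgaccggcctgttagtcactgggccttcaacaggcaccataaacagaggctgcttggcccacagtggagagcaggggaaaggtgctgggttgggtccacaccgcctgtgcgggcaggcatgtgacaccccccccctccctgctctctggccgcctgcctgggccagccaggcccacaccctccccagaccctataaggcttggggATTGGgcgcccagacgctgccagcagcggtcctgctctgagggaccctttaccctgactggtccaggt

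The Plin2 window held 1 nuclear receptor site, 1 E-box, 1 CCAAT box and 1 GC box. The Plin3 window held 1 CCAAT box and 3 GC boxes, of which a pair overlapped, and the Plin4 window held 1 CCAAT box. No match to any of these motifs was in the Plin1 window. Among all 32851 promoter windows in the table the nuclear receptor site was in 16.3%, the E-box in 7.15%, the CCAAT box in 37.4%, the GC box in 35.7% and the TATA box in 13.6%. A direct repeat of that site with a single free base between its copies, written AGGTCANAGGTCA and known as the preferred element of PPARG with its partner RXR, was in 0.0396% of all windows and in no window of the 8 genes. The E-box was in no other window of the 8 genes than that of Plin2, and the nuclear receptor site was also in windows of Plin5 and Bscl2. These matches describe letters in a short window and say nothing about whether a factor binds there. Plin3, Plin4 and Plin5 share chromosome 17, whereas the other genes lie on chromosomes 2, 4, 6, 7 and 19.

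The first comparison asked whether added LPL in adipocytes came with another level of the droplet coat genes after 10 days of the high fat diet. None of the 8 genes passed the test, where the test called 2 of 20208 clusters (0.00990%, Snd1 and Lrrc4; limma, adjusted p under 0.05). With the 2 number ranges in the model, the largest difference of a coat gene was a lower value of Plin2 in AdipoQ-LPL mice. The other 7 had log2 differences between -0.10 and 0.08. Since this is RNA of whole tissue, fewer adipocytes and less RNA per adipocyte cannot be told apart.

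Plin2, the perilipin found on droplets of nearly every cell type, had a lowest value of 10.47, a median of 10.79 and a highest of 11.22 (log2) in the 12 AdipoQ-LPL mice, against 10.75, 10.99 and 11.46 in the 12 Control mice. The genotypes overlapped over most of their span. The 5 lowest values all belonged to AdipoQ-LPL mice of the lower range. That range held more AdipoQ-LPL than Control mice and had lower Plin2 means in both genotypes, so this order mixes range with genotype. With the number range in the model the difference was -0.16 (SE 0.07, 95% interval -0.31 to -0.01). Its unadjusted p of 0.0412 became 0.585 after adjustment over all clusters (limma). An unadjusted p under 0.05 was reached by 8.37% of all clusters, and by 2.50% in the lower direction. Without the range in the model the Plin2 difference was -0.22 (adjusted p = 0.691).

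The other coat genes showed smaller differences, with intervals that bound them closely. Plin1, the adipocyte perilipin that guards the droplet from lipases until hormones release it, spanned 11.37 to 11.89 (median 11.60) in AdipoQ-LPL mice and 11.28 to 11.88 (median 11.70) in Control mice, with a modelled difference of 0.04 (95% interval -0.06 to 0.14). Plin4, a perilipin of white fat that coats small newly formed droplets, spanned 12.10 to 12.74 (median 12.33) in AdipoQ-LPL mice and 12.13 to 12.68 (median 12.43) in Control mice, with a difference of 0.08 (95% interval -0.01 to 0.17). Both genes thus covered nearly the same span in the 2 genotypes. Plin3, which moves from the cytosol to droplets as they form, differed by 0.05 (95% interval -0.05 to 0.16), with a span of 8.37 to 9.06 in AdipoQ-LPL mice and 8.28 to 9.01 in Control mice. Plin5, the perilipin of oxidative tissues that ties droplets to mitochondria, differed by -0.08 (95% interval -0.20 to 0.05).

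Cidec had the narrowest interval of the 8, with a difference of 0.02 (95% interval -0.05 to 0.09) and values of 13.06 to 13.46 in AdipoQ-LPL mice and 12.98 to 13.43 in Control mice. For the genes of droplet assembly, Bscl2 differed by -0.10 (95% interval -0.23 to 0.03) and Fitm2 by 0.0045 (95% interval -0.12 to 0.13). Bscl2 loss causes a congenital lipodystrophy in humans. Adjusted p-values of these 7 genes lay between 0.646 (Plin4) and 0.988 (Fitm2). Over the 8 genes the median difference was 0.01, and over all clusters tested it was 0.01 as well. Of the 8 genes 5 were above 0, as were 53.7% of all clusters.

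**Figure D1:**
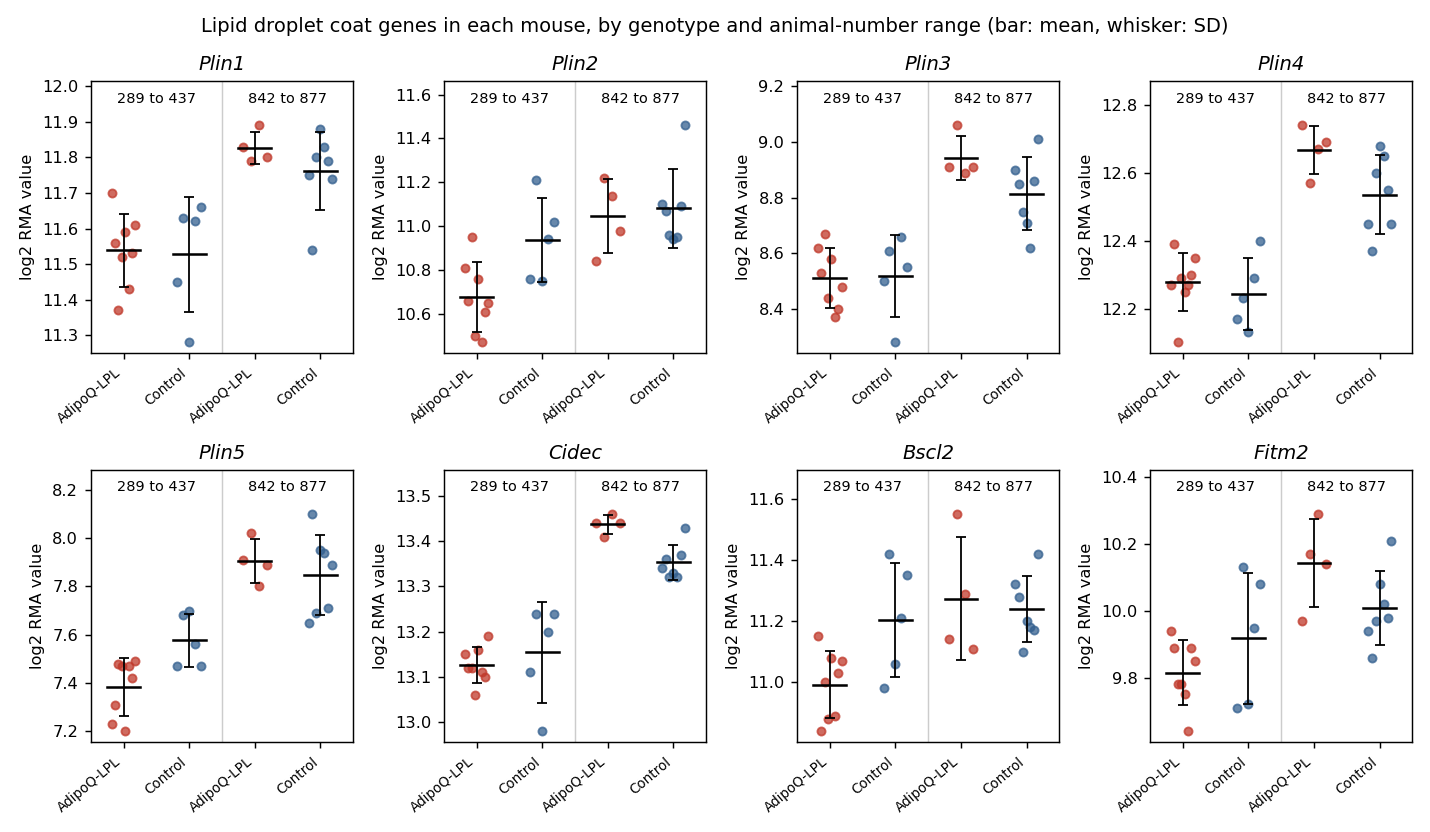
Log2 RMA value (y axis) of each of the 8 genes in each mouse, with AdipoQ-LPL mice (red) left of Control mice (blue) in the animal-number ranges 289 to 437 and 842 to 877; the line is the mean and the whisker the SD. In these deposited values all 8 genes sit higher in the upper range, which with centred arrays holds for none at the threshold, and the genotypes overlap in most panels, while Plin2, Plin5 and Bscl2 are lower in AdipoQ-LPL mice of the lower range.

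Within the lower range, where 8 AdipoQ-LPL mice were set against 5 Control mice, Plin2, Plin5 and Bscl2 were each lower in AdipoQ-LPL mice at an unadjusted p under 0.05, a level met in this direction by 3.96% of all clusters. None of the 8 passed adjustment over all clusters, which called 0.00990% of clusters. Plin2 had a lowest value of 10.47, a median of 10.66 and a highest of 10.95 in the AdipoQ-LPL mice, against 10.75, 10.76, 10.94, 11.02 and 11.21 in the 5 Control mice. Of the AdipoQ-LPL mice, 5 of 8 lay below the lowest Control mouse, and 2 of 5 Control mice lay above the highest AdipoQ-LPL mouse. For such counts of Plin2, and of Plin5 and Bscl2 below, the share of all clusters with as little overlap was not computed. The difference was -0.26 (SE 0.09, p = 0.0154, adjusted p = 0.547 by limma).

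Plin5 had 7.20, 7.45 and 7.49 as lowest, median and highest value in the 8 AdipoQ-LPL mice, against 7.47, 7.47, 7.56, 7.68 and 7.70 in the Control mice. The Control mean was higher than each of the 8 AdipoQ-LPL values, and 4 of these lay below the lowest Control mouse. The difference was -0.19 (SE 0.07, p = 0.0140, adjusted p = 0.546 by limma). Bscl2 had 10.84, 11.02 and 11.15 in the 8 AdipoQ-LPL mice, against 10.98, 11.06, 11.21, 11.35 and 11.42 in the Control mice. Each of the 8 AdipoQ-LPL values was again under the Control mean, with 3 below the lowest Control mouse. The difference was -0.21 (SE 0.08, p = 0.0195, adjusted p = 0.559 by limma).

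The differences of Plin2 and Bscl2 rested in part on single mice. Without the second Control mouse, which had the highest Plin2 value of its group and a Bscl2 value of 11.42, the differences in the lower range were -0.19 for Plin2 (p = 0.0553) and -0.16 for Bscl2 (p = 0.0682, both by limma). Without the fifth Control mouse, Bscl2 was at -0.18 (p = 0.0601 by limma). When each mouse of the lower range was left out in turn, Plin2, Bscl2 and Plin5 all kept their direction. Plin2 stayed between -0.30 and -0.19, Bscl2 between -0.27 and -0.16 and Plin5 between -0.22 and -0.16. Only Plin5 kept an unadjusted p under 0.05 in every omission, and none passed adjustment in any (limma). The lower range also held 6 AdipoQ-LPL mice numbered 422 to 437 with no Control mouse of like number. The other 2 AdipoQ-LPL mice, numbered like the Control mice, had Plin2 values of 10.66 and 10.81, Plin5 values of 7.23 and 7.31 and Bscl2 values of 10.84 and 11.15. Their Plin5 values lay below all 5 Control values, whereas their Plin2 and Bscl2 values overlapped those of the Control mice. With these 2 mice alone, the mean difference from the 5 Control mice was -0.20 for Plin2, -0.31 for Plin5 and -0.21 for Bscl2. In the model with both ranges, leaving out the 6 mice gave -0.09 for Plin2, -0.07 for Plin5 and -0.05 for Bscl2.

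Macrophages also hold droplets and express Plin2. All 10 tested macrophage genes (of 11 listed) were above 0 in the AdipoQ-LPL minus Control difference, with a median of 0.22 on the log2 scale and 0 of 10 called after adjustment. The mean level of the list was 9.75 to 10.39 (log2) in AdipoQ-LPL mice and 9.12 to 9.89 in Control mice of the lower range, and 9.75 to 10.02 in AdipoQ-LPL mice and 9.59 to 10.02 in Control mice of the upper range. This is the opposite direction to that of Plin2, and the correlation of Plin2 with the list was 0.44 in the lower and -0.03 in the upper range. A second list, of macrophages laden with lipid, had 6 of 8 genes below 0, a median of -0.15 and 0 called. By range it did not follow Plin2, which differed by -0.26 in the lower and -0.04 in the upper range. The list had a median of -0.03 (4 of 8 above 0) in the lower and -0.22 (1 of 8 above 0) in the upper range. Its mean level was 7.22 to 8.12 in AdipoQ-LPL mice and 7.25 to 7.76 in Control mice of the lower range, and 7.69 to 7.76 in AdipoQ-LPL mice and 7.51 to 8.63 in Control mice of the upper range. Its correlation with Plin2 was 0.27 in the lower and 0.68 in the upper range, neither called, and 0.08 in the upper range without the 2 mice farthest from its median. The part of macrophages in the Plin2 difference was not tested.

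Within the upper range, with 4 AdipoQ-LPL and 7 Control mice, none of the 8 genes reached an unadjusted p under 0.05, against 9.38% of all clusters, and adjustment called 0.00495% of clusters. Plin2 had 10.84, 10.98, 11.14 and 11.22 in the AdipoQ-LPL mice and a lowest value of 10.94, a median of 11.07 and a highest of 11.46 in the Control mice, a difference of -0.04 (95% interval -0.27 to 0.19). Cidec had 13.41, 13.44, 13.44 and 13.46 in the AdipoQ-LPL mice, against a lowest of 13.32, a median of 13.34 and a highest of 13.43 in the Control mice. For Cidec, 3 of 4 AdipoQ-LPL mice lay above every Control mouse. The share of all clusters with as little overlap was not computed. The difference was small (0.09, SE 0.05, p = 0.0943, adjusted p = 0.598 by limma). Plin4 had 12.57, 12.67, 12.69 and 12.74 in the AdipoQ-LPL mice and 12.37, 12.55 and 12.68 as lowest, median and highest in the Control mice, a difference of 0.13 (SE 0.07, p = 0.0811, adjusted p = 0.575 by limma). Fitm2, which helps droplets bud from the endoplasmic reticulum, was also above 0 (0.13, 95% interval -0.04 to 0.30).

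**Figure D2:**
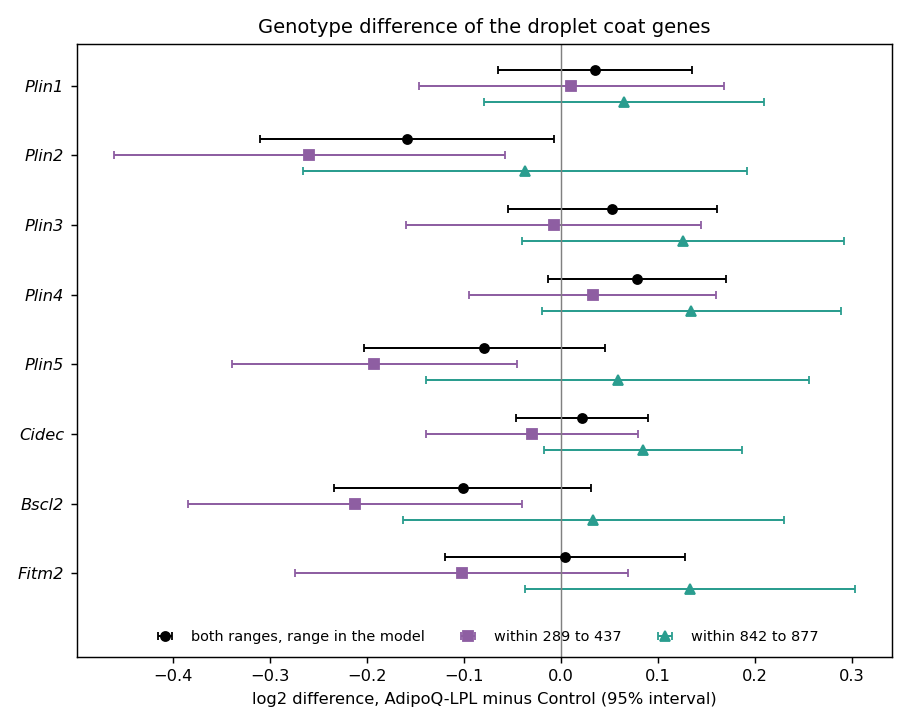
Log2 difference between AdipoQ-LPL and Control mice with its 95% interval (x axis) for each gene, from the model with both animal-number ranges (circles) and from each range alone (squares and triangles). For all 8 genes the upper range lies to the right of the lower range, and the intervals of Plin2, Plin5 and Bscl2 lie wholly below 0 in the lower range.

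The genotype difference was then compared between the ranges with an interaction term, the difference in the upper range minus that in the lower range. It was above 0 for all 8 genes, where 55.8% of all clusters were above 0, and the 8 values share the same 24 mice. Plin5 had the largest interaction (0.25, SE 0.11, p = 0.0342), followed by Bscl2 (0.25, SE 0.12, p = 0.0548), Fitm2 (0.24, SE 0.11, p = 0.0486) and Plin2 (0.22, SE 0.14, p = 0.135, all by limma). None was called after adjustment (adjusted p between 0.616 and 0.899), nor was any of the 20208 clusters (0%), of which 7.95% had an unadjusted p under 0.05. Without the mice numbered 422 to 437 the interaction of Plin1, 0.05 with all mice, was -0.04 and that of Plin5 was 0.36 (p = 0.0188, adjusted p = 1 by limma). Mesothelium markers differed in sign between the ranges too: 8 of 8 were above 0 in AdipoQ-LPL minus Control in the lower range and 0 of 8 in the upper range, with medians of 0.36 and -0.23. Their mean level spanned 7.95 to 8.87 (log2) in AdipoQ-LPL mice and 7.94 to 8.79 in Control mice of the lower range, and 7.75 to 8.89 in AdipoQ-LPL mice and 7.54 to 9.09 in Control mice of the upper range. T and B cell markers turned likewise (8 of 8 above 0 in the lower and 1 of 8 in the upper range, medians of 0.18 and -0.46), and so did endothelial markers (5 of 8 and 1 of 8). The coat genes went the opposite way (2 of 8 above 0 in the lower and 7 of 8 in the upper range). So did other droplet proteins (12 of 32 and 26 of 32) and regulators of droplet genes (2 of 12 and 9 of 12). This shift was not particular to droplet genes. Markers of adipocytes (6 of 10 and 10 of 10), brown or beige adipocytes (3 of 6 and 5 of 6) and skeletal muscle (1 of 6 and 4 of 6) shared it. Erythroid (1 of 3 and 3 of 3) and epididymis markers (1 of 5 and 3 of 5) did too. Stromal fibroblast markers (6 of 9 and 4 of 9) and both macrophage lists (10 of 10 and 9 of 10, 4 of 8 and 1 of 8) did not. The part of any of these cells in the interaction was not tested. The share of all clusters above 0 within each range was not computed, and their median was -0.0029 in the lower and 0.02 in the upper range. The lists also share genes, such as Lipe, Cidea and Ppargc1a.

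Between the ranges themselves, all 8 genes were higher in the upper range than in the lower range of the deposited values, by 0.15 (Bscl2) to 0.39 (Plin5), and all 8 passed the test, as did 82.9% of all clusters. The median over all clusters was 0.33, so the coat genes moved with the arrays as a whole. With each array centred on its own median, 32.5% of clusters passed and the only coat gene among them was Bscl2 at -0.20 (SE 0.07, adjusted p = 0.0321 by limma). The other 7 were then between -0.15 (Fitm2) and 0.04 (Plin5). After quantile normalization Bscl2 was at -0.11 (adjusted p = 0.163), and Plin4 was called at 0.15 (adjusted p = 0.0123).

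The coat genes differed in how much they varied among mice of the same genotype and range. The residual SD was 0.06 (log2) for Cidec, 0.10 for Plin4, 0.11 for Plin1, 0.12 for Plin3, 0.13 for Plin5 and Fitm2, 0.14 for Bscl2 and 0.17 for Plin2, beside a median of 0.16 over 18665 genes. A smaller SD than that of Cidec was found in 1.21% of all genes, and a smaller SD than that of Plin2 in 59.7%. Among the 138 genes whose log2 mean was 12 or more, a smaller SD than that of Cidec was found in 22.5%, and than that of Plin4 in 58.0%.

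The mice were next used to ask which coat genes varied together. Pearson's r was computed for the 28 pairs within each range after the mean of each genotype had been removed, and p-values came from 100000 permutations of mice within genotype, adjusted over the 56 values. Of the pairs, 4 passed in the lower range and 3 in the upper range, all with positive r. The share of other gene pairs that would pass was not computed, so whether this is particular to coat genes was not tested. Those called in both ranges were Plin2 with Plin3 and, at the threshold, Plin2 with Bscl2. By Spearman's rho, only Plin2 with Plin3 in the lower range passed adjustment.

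Plin2 and Plin3 had r = 0.81 (permutation p = 0.00173, adjusted p = 0.0418) over the 13 mice of the lower range and r = 0.80 (permutation p = 0.00349, adjusted p = 0.0463) over the 11 mice of the upper range. Their rho was 0.91 (permutation p = 0.0001, adjusted p = 0.0056) in the lower and 0.74 (permutation p = 0.0123, adjusted p = 0.0745) in the upper range. Without the 2 mice farthest from the Plin2 median, r was 0.80 in each range. Mice high in one of these perilipins were therefore high in the other in both ranges. The AdipoQ-LPL mouse with the highest Plin2 value of its range was also highest in Plin3 in each range (10.95 with 8.67, and 11.22 with 9.06), and the same held for the Control mouse with 11.46 and 9.01 in the upper range. It did not hold among the Control mice of the lower range, where the highest Plin2 value of 11.21 went with 8.61 for Plin3 and the highest Plin3 value was 8.66.

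Plin2 and Bscl2 had r = 0.76 (permutation p = 0.00625, adjusted p = 0.05 to the digits given, so that another draw of permutations could put it on either side) in the lower range and r = 0.80 (permutation p = 0.00224, adjusted p = 0.0418) in the upper range. Their rho was 0.68 (permutation p = 0.0160, adjusted p = 0.0745) in the lower and 0.71 (permutation p = 0.0322, adjusted p = 0.113) in the upper range, and r was 0.63 and 0.81 without the 2 farthest mice. Plin3 and Bscl2, the remaining pair among these 3 genes, had r = 0.51 in the lower and 0.68 in the upper range, neither called.

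Plin1 and Plin4, both perilipins that are abundant in white adipocytes, had r = 0.71 (permutation p = 0.0116, adjusted p = 0.0591) in the lower range and r = 0.83 (permutation p = 0.00086, adjusted p = 0.0418) in the upper range. Their rho was 0.59 (permutation p = 0.0535, adjusted p = 0.150) and 0.79 (permutation p = 0.0066, adjusted p = 0.0738), and r was 0.44 and 0.93 without the 2 mice farthest from the Plin1 median. The relation in the lower range thus rested in part on 2 mice. Both genes were also set against the mean of 10 adipocyte markers, a list that held none of the 8 genes. For Plin1 that r was 0.89 in the lower and 0.90 in the upper range, and for Plin4 it was 0.62 and 0.88. Of the 144 relations computed between the 8 genes and marker lists or array medians, 5 passed adjustment, 3 of them being Plin1 with the adipocyte list in both ranges and Plin4 with it in the upper range (adjusted p of 0.0144 to 0.0291, permutation). The others were Plin4 with mesothelium markers in the upper range (r = 0.88) and Cidec with the array median in the lower range (r = -0.80). By Spearman's rho, Plin1 with the adipocyte list in the lower range alone passed (permutation, adjusted p = 0.0432), the other 4 being at 0.146. The share of other genes that would pass with these lists was not computed.

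**Figure D3:**
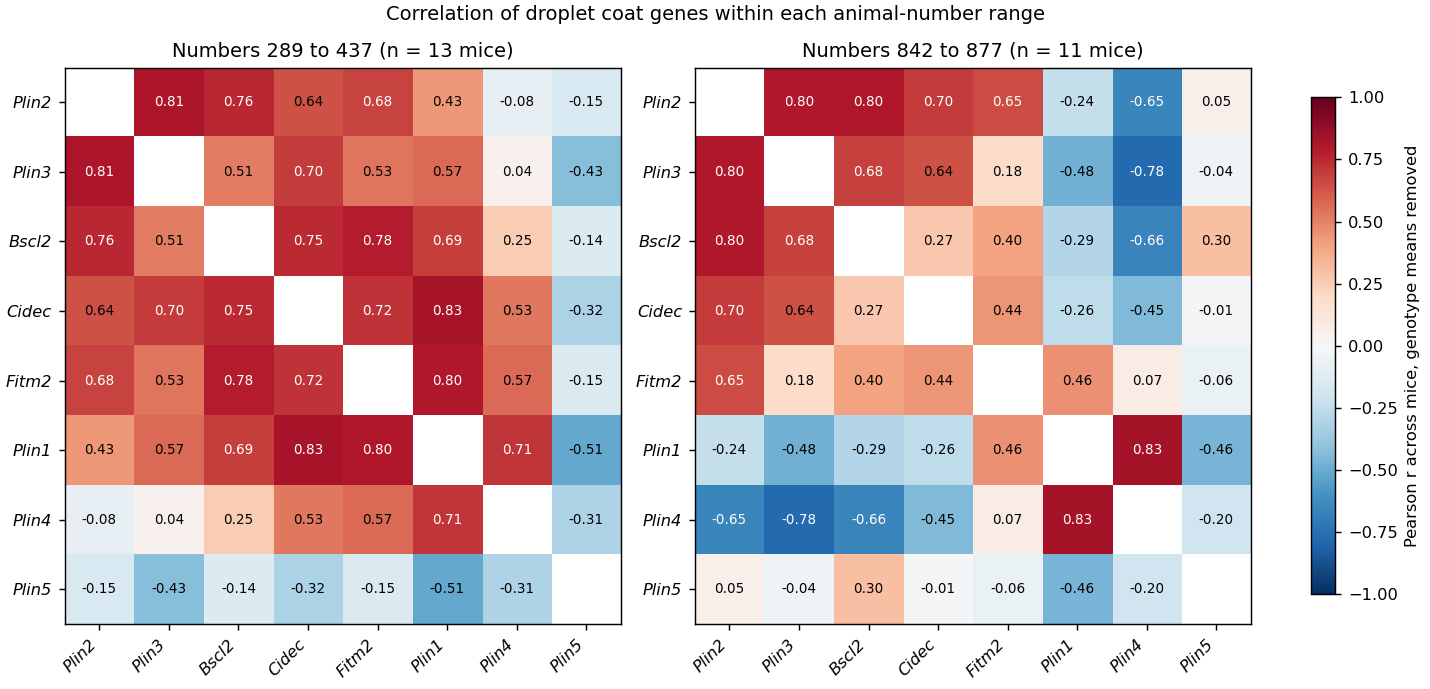
Pearson's r between each pair of the 8 genes across mice, with genotype means removed, in the animal-number ranges 289 to 437 (left) and 842 to 877 (right); red is positive and blue negative. Plin2 is positive with Plin3, Bscl2, Cidec and Fitm2 in both ranges. In the upper range its r without the 2 mice farthest from the Plin2 median was 0.30 with Cidec and -0.28 with Fitm2. Plin1 and Plin4 are positive with each other in both ranges and negative with Plin2 in the upper range.

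Several pairs took different values in the 2 ranges. Plin1 and Cidec had r = 0.83 (adjusted p = 0.0463, permutation) in the lower and -0.26 (adjusted p = 0.622) in the upper range, and Plin1 and Fitm2 had 0.80 (adjusted p = 0.0463) and 0.46 (adjusted p = 0.314). Plin4 had r = -0.08 with Plin2 and 0.04 with Plin3 in the lower range, beside -0.65 and -0.78 in the upper range (adjusted p = 0.0844 and 0.0609, permutation). The difference between ranges was not tested for any pair. Plin5 had r between -0.51 and -0.14 with the other 7 genes in the lower range and between -0.46 and 0.30 in the upper range, none called. Negative r in the upper range was not particular to Plin5, since Plin4 also had -0.66 with Bscl2 and -0.45 with Cidec there.

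**Figure D4:**
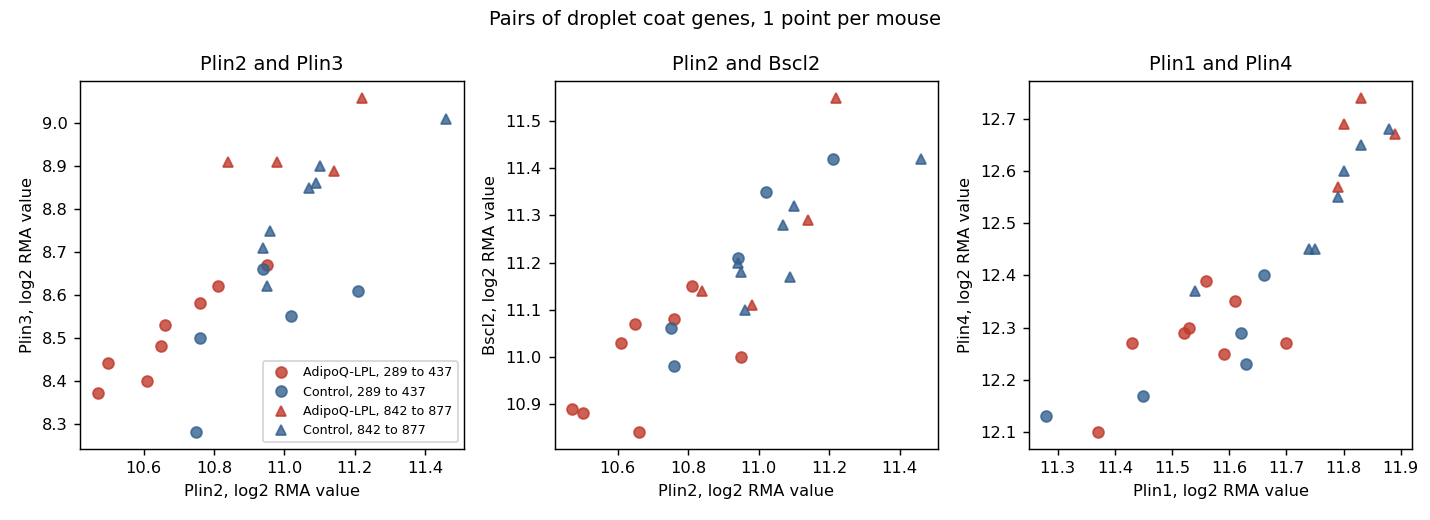
Log2 RMA values of Plin2 against Plin3, Plin2 against Bscl2 and Plin1 against Plin4, 1 point per mouse, with AdipoQ-LPL mice in red and Control mice in blue (circles for numbers 289 to 437, triangles for 842 to 877). In each panel the points rise together within both ranges, with r of 0.81 and 0.80, 0.76 and 0.80, and 0.71 and 0.83 in the lower and upper range.

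The calls of these pairs were sensitive to single mice. Their r moved as well but stayed above 0 in every omission. For Plin2 with Plin3 in the upper range it fell from 0.80 to 0.65 without Control mouse 12. Leaving out each of the 24 mice in turn, 7 omissions left both pairs called in both ranges, 8 left only Plin2 with Plin3 (Control mice 1 to 4 and AdipoQ-LPL mice 3, 8, 9 and 11) and 8 left 0 (Control mice 5, 8, 9 and 12 and AdipoQ-LPL mice 2, 4, 10 and 12). Without AdipoQ-LPL mouse 5, the pairs called were Plin2 with Plin3 and Plin1 with Plin4. Plin2 with Plin3 was thus called in both ranges in 16 of 24 omissions, and Plin2 with Bscl2 in 7. Across all omissions and both ranges the lowest r was 0.65 for Plin2 with Plin3, 0.67 for Plin2 with Bscl2 and 0.64 for Plin1 with Plin4. No pair was called in both ranges after quantile normalization (r of 0.73 and adjusted p = 0.0606 for Plin2 with Bscl2 in the lower range, permutation), and 4 pairs were called with centred arrays, Plin1 with Plin4 among them (adjusted p = 0.0166 in each range).

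For each coat gene, the 2 other genes with the most similar pattern across mice were taken, by the mean of r over the 2 ranges among 18665 genes. Plin1 was most like Thrb, a thyroid hormone receptor (mean r 0.92), and Slc16a7, a monocarboxylate transporter (0.91). Plin2 was most like Tmem48, a nuclear pore protein (0.93), and Ppp2r5b, a phosphatase subunit (0.88). Plin3 was most like Mogat2, an acyltransferase of triglyceride synthesis (0.89), and Hist1h2bn, a histone gene (0.86). Plin4 was most like Ppp2r1b, another phosphatase subunit (0.85), and Ces1d, an adipocyte triglyceride hydrolase (0.85). Bscl2 was most like Pcx, the mitochondrial pyruvate carboxylase (0.90), and Ccdc90a (0.89), and Cidec was most like Lzic (0.85) and Atp6v1e1, a subunit of the vacuolar proton pump (0.85). Fitm2 was most like Epb4.1l1 (0.85) and 5730460C07Rik (0.85), and Plin5, with the lowest values of the 8, most like Gpr97 (0.76) and Slco3a1, an organic anion transporter (0.74). Such values are the highest of 18665 and describe these mice only.

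Other genes of droplet biology gave no called difference between AdipoQ-LPL and Control mice. Of 34 further droplet proteins, 32 were tested, 17 with a difference above 0 and 15 below, 0 called, and a median difference of 0.01. The lowest p-values were those of Nsdhl, a sterol synthesis enzyme that can sit on droplets (-0.41, SE 0.15, adjusted p = 0.514), Acsl3, an acyl-CoA synthetase of growing droplets (-0.23, SE 0.09, adjusted p = 0.520), Agpat2, which like Bscl2 is mutated in congenital lipodystrophy (-0.24, SE 0.09, adjusted p = 0.531) and Spg20 (0.14, SE 0.06, adjusted p = 0.569, all by limma). The 3 with lower values differed by -0.65 (Nsdhl), -0.42 (Acsl3) and -0.44 (Agpat2) in the lower range and by -0.12, -0.01 and -0.0029 in the upper range, a difference between ranges that was not tested. Of 12 regulators of droplet genes, Pparg among them, all were tested and 0 were called. Hif1a (-0.15), Srebf1 (-0.18), Cebpb (-0.12) and Rxra (0.09) had the lowest p-values, and Pparg itself differed by 0.02 (SE 0.07, adjusted p = 0.945 by limma).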

How the data were processed

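RNA of perigonadal fat from 24 mice was hybridised to Affymetrix mouse transcript arrays by the authors, 1 array per mouse. The deposited values are log2 intensities that the authors obtained with RMA and analysed in Partek. For versions, genome build and annotation the sources used here give nothing. The authors' workbook gave the gene symbols and the number of markers per cluster, a count of probe sets per transcript. The authors' own group means, fold changes and p-values were not used. Their Control mean lay within 0.01 of the mean of the deposited Control columns for 2155 of 41345 clusters only, and the reason is not known. Of 41345 clusters, the 20208 that had a symbol and reached a log2 mean of 5 in one of the genotypes were fitted (18665 genes) with limma 3.58.1 in R 4.3.3, with genotype and animal-number range as terms, and p-values were adjusted by Benjamini-Hochberg over all clusters. The brightest cluster stood for a gene with several. Correlations used Python 3.11.15 and numpy 2.4.6. Both were tested on simulated data. Array number limits the precision, and no sequencing depth applies. The labels name separate mice. Named genes were the 8 coat genes, Lpl, the 4 lowest p-values of each list and, per coat gene, the 2 genes most alike. The genes and lists were chosen with earlier results of these data known. Alternatives were other scalings, filters and weights, each range alone, a replicate block and leaving out mice. The other scalings of the correlations, the omissions for correlations and within a range, and centring without the range term were chosen after seeing the data.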

Additional observations from a re-analysis of the deposited data

Results flagged for a closer look

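Among 32 groups (8 genes, 2 genotypes, 2 number ranges), 4 held a mouse whose gap to its nearest neighbour took up more of the group's range than Dixon's 95% critical value, where chance alone flags about 5% of groups. Plin3 was 9.06 (log2) in AdipoQ-LPL mouse 2, with the other 3 AdipoQ-LPL mice of the upper range between 8.89 and 8.91. Plin4 was 12.10 in AdipoQ-LPL mouse 7, with the other 7 of the lower range between 12.25 and 12.39. Plin1 was 11.54 in Control mouse 7, with the other 6 of the upper range between 11.74 and 11.88. Plin2 was 11.46 in Control mouse 12, with the other 6 of the upper range between 10.94 and 11.10. That mouse bears on the relation of Plin2 with Cidec, which had r = 0.70 in the upper range with it and 0.22 without it, and on that of Plin2 with Plin3, which had 0.65 without it.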

How the results depend on the processing

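The count of coat genes called stayed at 0 under every alternative run, and the lowest adjusted p of a coat gene was 0.484 over the 14 alternatives and 0.47 over the omissions of 1 mouse for the genotype difference, and 0.219 (Cidec, array weights) and 0.243 (Cidec, without Control mouse 3) for the interaction (limma). Without the range term the differences of Plin1 (-0.0296), Plin3 (-0.0365), Plin4 (-0.00535), Cidec (-0.0407) and Fitm2 (-0.0461) turned below 0, as did the median of all clusters (-0.08). Within numbers 289 to 437, Plin3 (-0.00711), Cidec (-0.0297) and Fitm2 (-0.10) were below 0, and within numbers 842 to 877 Plin5 (0.0589) and Bscl2 (0.0336) were above 0. Fitm2 was -0.0101 with array weights and -0.0262 to 0.0407 over the omissions. The interaction of Plin1 was -0.0354 without the mice numbered 422 to 437, which left fewer mice. Clusters called numbered 1 within numbers 842 to 877, 1 with a floor of 6, and 2 to 4 over the omissions, with 4 without Control mouse 10 or AdipoQ-LPL mouse 8. Pairs of genes called in both ranges numbered 4 with arrays centred on their medians, 0 after quantile normalization and 0 to 2 over the omissions, and r of Plin1 with Cidec in the upper range turned to 0.37 after quantile normalization. The cause of these changes was not tested. Mice with the same replicate number had correlations of -0.43 to 0.26 in their deviations, 6 of 12 over 0.1. Most of these numbers joined mice of different ranges (animals 289 and 844 for replicate 1), so these values cannot decide whether mice were paired. A replicate block with the range called 2 clusters and 0 coat genes, with Plin2 at -0.15. The 12 numbers gave no Control mouse that correlated best with its own number. Background signal of the arrays was not given, so that its bearing on clusters with low values, among them Plin5 with a mean of 7.65, was not tested.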
